A study of Mus musculus with 5 samples.

Results

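The common dendritic cell progenitor (CDP) and the nonclassical monocyte were set together against the common monocyte progenitor (cMoP) and the classical monocyte, to find the genes that split these 4 mouse bone marrow populations along that line. A gene was counted where the lower array of one side lay above the higher array of the other, so that the sides did not overlap. The distance between those arrays is called the gap here. With a gap of 1 log2 unit or more, which is 2-fold, 5 genes were higher in CDP and the nonclassical monocyte and 28 were higher in cMoP and the classical monocyte, of 19938 genes with a value. The grouping uses 4 of the 5 arrays of the series. The remaining array, of the monocyte-dendritic cell progenitor (MDP), is described beside them.

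All populations were sorted by flow cytometry from the marrow of wild type C57Bl/6 mice, without treatment, as cells that lacked lineage markers and carried CD115. CDP had intermediate CD117 and were positive for CD135, cMoP had CD117 and no CD135, and MDP had both. The classical monocyte was Ly6C+ TremL4- and the nonclassical monocyte Ly6C- TremL4+. The RNAqueous-Micro kit gave the RNA, the Nugen Encore Biotin kit its label, and it was measured on 1 expression array per population. The age and sex of the animals and how many were pooled for each array are not in the labels used here. No value therefore has a replicate, no difference below has a p-value or a replicate check, and the 2 arrays of a side are different cell types, not repeats of a condition.

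MDP is held to give rise to CDP, which forms dendritic cells, and to cMoP, which forms monocytes. Classical monocytes leave the marrow and enter inflamed tissue, and many nonclassical monocytes, which patrol the vessel wall, are held to arise from them. CDP and the nonclassical monocyte are therefore not neighbours in the usual scheme, while cMoP and the classical monocyte are.

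Of the genes of the sort markers, 4 were measured: Csf1r, Kit, Flt3 and Treml4, which encode CD115, CD117, CD135 and TremL4. Flt3 read 10.74 in CDP and 6.40 in cMoP, and Treml4 read 11.78 in the nonclassical and 6.18 in the classical monocyte, in the direction of the labels. Between 9831 and 10167 genes on each array were at or above a floor of 6.27, the median of all gene values over the 5 arrays. A gene entered the counts by gap below only if both arrays of its higher side were at or above that floor, which 9937 genes met on a side. Counts for CDP over cMoP and for nonclassical over classical monocyte asked this only of the higher array of the comparison. The array medians differed by up to 0.137, between the nonclassical monocyte and cMoP.

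The 5 genes higher in CDP and the nonclassical monocyte were 0.0503% of those 9937 genes, and the 28 higher in cMoP and the classical monocyte were 0.282%. The widest gaps were in the second direction, but the medians were close. Gaps ran from 1.0 to 1.64 (median 1.28) among the 5 and from 1.04 to 3.37 (median 1.32) among the 28. On lowering the threshold to 0.5 log2 unit, which is 1.41-fold, the counts became 49 (0.493%) and 155 (1.56%). That wider split moved with the scaling of the arrays. It was 60 to 105 after quantile normalization and 30 to 228 after centring each array on its median, against 4 to 23 and 4 to 36 at a gap of 1. The genes just inside the threshold of 1 were Rtn4rl1 (1.0), Cmah (1.27) and Heg1 (1.28) in the CDP and nonclassical direction, and Frmd6 (0.989), Maml2 (0.935) and Mir103-2 (0.890) lay just outside. In the other direction Ikbke (1.04), Atrn (1.05) and Fgl2 (1.05) were just inside, and H2ac4 (0.997), Tmem43 (0.962) and Pgd (0.958) just outside.

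**Figure D1:**
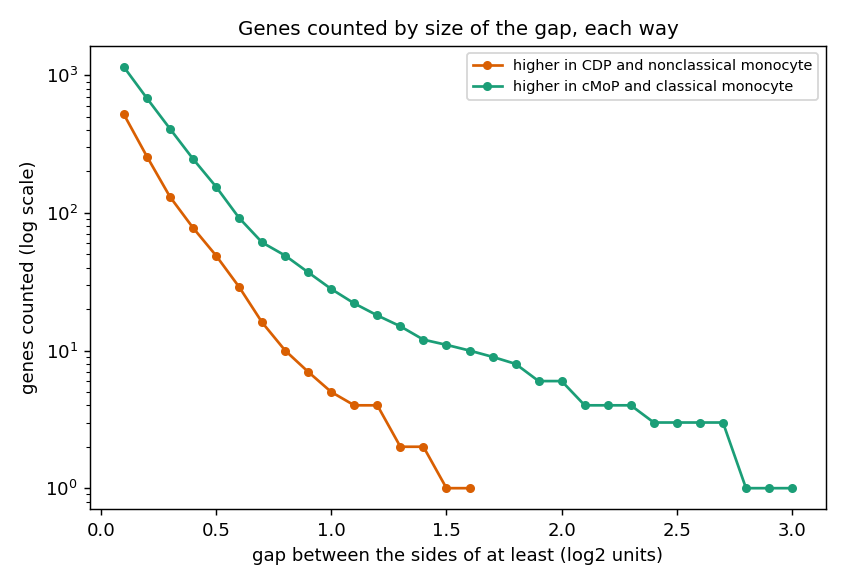
Number of genes (log scale) whose gap between the sides is at least the value on the horizontal axis (log2 units), for each direction. Only genes with both arrays of the higher side at or above the floor are counted. The line for cMoP and the classical monocyte lies above the other at every gap plotted, with 155 against 49 genes at 0.5 and 28 against 5 at 1.

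The 5 genes higher in CDP and the nonclassical monocyte encode an integrin, a signalling adaptor, 2 other cell surface proteins and an enzyme of sialic acid chemistry. Itgax encodes the integrin alpha chain CD11c, which is used to mark dendritic cells and is also carried by nonclassical monocytes. Itgax read 6.93 in CDP, 6.80 in the nonclassical monocyte, 5.16 in cMoP, 4.20 in the classical monocyte and 5.35 in MDP. CDP and the nonclassical monocyte were the only arrays above the floor, 0.13 apart from each other and 1.64 above cMoP. Since both arrays of the lower side were under the floor, the fold between the sides is given as at least 1.44.

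Grap2 encodes Gads, an adaptor that links receptors with ITAM motifs to SLP-76. It read 7.24 in CDP, 7.34 in the nonclassical monocyte, 5.38 in cMoP, 5.81 in the classical monocyte and 6.02 in MDP, again with only CDP and the nonclassical monocyte above the floor (gap 1.44, at least 1.97-fold). Cmah, whose enzyme makes N-glycolylneuraminic acid from N-acetylneuraminic acid, read 6.68 and 6.84 in CDP and the nonclassical monocyte against 5.33 and 5.41 in cMoP and the classical monocyte. MDP, at 6.70, stood with the higher side. The gap was 1.27, or at least 1.33-fold.

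Heg1 encodes a transmembrane protein of cell junctions. It was the brightest of the 5, with 9.90 in CDP, 9.09 in the nonclassical monocyte, 7.81 in cMoP and 7.56 in the classical monocyte, and 9.36 in MDP. All 5 arrays were above the floor, and the sides stood 2.44-fold apart (gap 1.28). A second probe set of Heg1 gave 7.68 in CDP, 7.37 in the nonclassical monocyte, 6.63 in cMoP and 6.5 in the classical monocyte, the same order with a gap of 0.74. Rtn4rl1, a relative of the Nogo receptor, was uneven within its side, at 9.08 in CDP and 7.0 in the nonclassical monocyte, against 5.97 in cMoP and 6.0 in the classical monocyte. Its gap of 1.0 (at least 1.66-fold) was 0.97 after quantile normalization and 0.89 after centring, so it is a count at the threshold. Itgax, Grap2 and Cmah thus differed by at most 0.15 between CDP and the nonclassical monocyte, while Heg1 and Rtn4rl1 were higher in CDP, by 0.81 and 2.08.

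**Figure D2:**
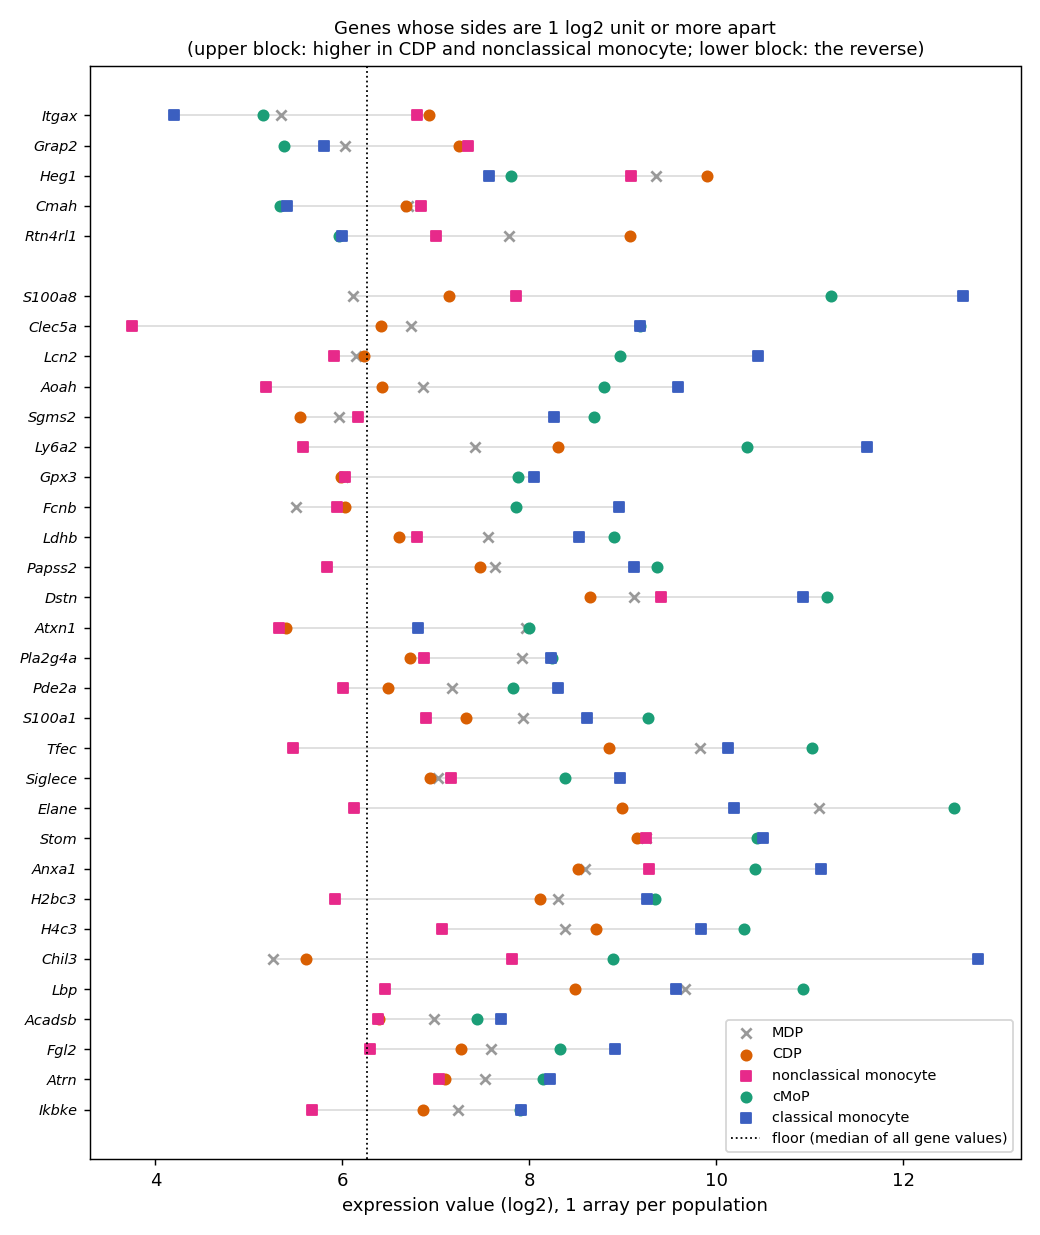
Log2 expression values of the 33 genes with a gap of 1 or more (1 point per array, 1 array per population), the 5 higher in CDP and the nonclassical monocyte above and the 28 higher in cMoP and the classical monocyte below, in order of gap. The dotted line is the floor of 6.27. Most of the upper 5 lie close to it, and S100a8 at the head of the lower block has cMoP at 11.23 and the classical monocyte at 12.64 with the other 3 arrays under 7.9.

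The 28 genes higher in cMoP and the classical monocyte included 5 of secreted or granule-stored defence proteins, S100a8, Lcn2, Fcnb, Elane and Chil3. S100a8, a subunit of the calcium-binding protein calprotectin, read 11.23 in cMoP and 12.64 in the classical monocyte, against 7.14 in CDP, 7.86 in the nonclassical monocyte and 6.12 in MDP. The gap of 3.37 (10.4-fold) was the widest of all genes counted. Its partner in calprotectin, S100a9, read 8.41 in cMoP, 12.07 in the classical monocyte, 7.65 in CDP and 8.18 in the nonclassical monocyte, so that its gap was only 0.23. Lcn2, which binds bacterial siderophores, read 8.97 and 10.45 in cMoP and the classical monocyte against 6.23 in CDP and 5.91 in the nonclassical monocyte (gap 2.74, at least 6.52-fold). MDP, at 6.14, was also under the floor for Lcn2.

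Fcnb encodes ficolin B, a lectin that can start the complement cascade. It read 7.86 in cMoP and 8.96 in the classical monocyte, with CDP (6.02), the nonclassical monocyte (5.94) and MDP (5.50) all under the floor. Elane, the gene of neutrophil elastase, was highest in cMoP (12.55), followed by MDP (11.10), the classical monocyte (10.19), CDP (8.99) and the nonclassical monocyte (6.12). Its gap of 1.20 therefore stood between the classical monocyte and CDP, and the 2 arrays of each side were far apart. Chil3, the chitinase-like protein Ym1, had a gap of 1.08 with an uneven spread too, from 12.80 in the classical monocyte and 8.90 in cMoP to 7.81 in the nonclassical monocyte and 5.61 in CDP. After quantile normalization the gap of Chil3 was 0.96.

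S100a8 and Lcn2 also stand in a list of 15 neutrophil genes. The summed level of that list, as log2, was 12.35 in cMoP and 14.00 in the classical monocyte against 10.18 in CDP and 11.49 in the nonclassical monocyte, but it holds S100a8 and Lcn2, which the rule itself selected. Over the 13 genes of the list that were not counted, the sum was 11.18 in cMoP, 13.08 in the classical monocyte, 9.89 in CDP and 11.34 in the nonclassical monocyte, so that the sides overlapped. Of the 15 genes, Ltf, Mmp9, Retnlg, Ly6g and Chil1 were under the floor on all 5 arrays, among them the neutrophil surface marker Ly6g at 4.69 to 4.75. Others were bright, and between 5 and 9 of the 15 were at or above the floor on each array. Mmp8 read 11.28 in the classical monocyte, 7.02 in cMoP, 6.75 in CDP and 4.32 in the nonclassical monocyte. Csf3r reached 10.31 in the nonclassical monocyte, and Trem3 read 9.68 in cMoP against 6.01 in CDP. The 6 other lists of cells that a marrow sort could hold (erythroid, platelet, B, T and NK cell, macrophage, and basophil, mast cell and eosinophil) had 0 genes with a gap of 0.5 or more, but only 14 of their 70 measured genes had a side past the floor. With 0.493% and 1.56% of all genes at such a gap on the respective sides, nothing can be read from that 0. The part of neutrophil RNA in the values of S100a8 and Lcn2 was not tested. In a sorted sample, fewer cells of a type and less RNA per cell cannot be told apart.

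Clec5a, a lectin receptor that signals through DAP12, read 9.19 in cMoP and 9.18 in the classical monocyte, which were nearly equal, against 6.41 in CDP, 3.76 in the nonclassical monocyte and 6.74 in MDP. The gap was 2.77 (6.82-fold). Aoah, the enzyme that removes acyl chains from lipopolysaccharide, read 8.80 and 9.59 against 6.42 in CDP and 5.18 in the nonclassical monocyte (gap 2.38, 5.19-fold). Lbp, which carries lipopolysaccharide to its receptor, read 10.92 in cMoP and 9.57 in the classical monocyte against 8.49 and 6.46 (gap 1.08, and 0.96 after quantile normalization), and MDP (9.67) stood with the higher side. The inhibitory sialic acid receptor Siglece read 8.38 and 8.97 against 6.94 and 7.16 (gap 1.22). Ly6a2, of a gene family with similar sequences that makes the probe set's specificity uncertain, read 10.32 and 11.61 against 8.31 in CDP and 5.58 in the nonclassical monocyte (gap 2.02). Ikbke, a kinase upstream of interferon regulatory factors, read 7.90 and 7.91 against 6.86 and 5.67 (gap 1.04).

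Several of the 28 genes encode enzymes. Sgms2, a sphingomyelin synthase, read 8.69 in cMoP and 8.26 in the classical monocyte, while CDP (5.54), the nonclassical monocyte (6.17) and MDP (5.96) were under the floor (gap 2.09, at least 3.98-fold). Gpx3, the secreted glutathione peroxidase, read 7.87 and 8.05 against 5.98 and 6.02, with MDP at 6.00 (gap 1.85, at least 3.04-fold). For Gpx3 the 2 arrays of each side lay within 0.18 of each other. Ldhb, a subunit of lactate dehydrogenase, read 8.90 and 8.53 against 6.60 and 6.80 (gap 1.73), and its second probe set gave a gap of 1.65 in the same direction. Papss2, which makes the sulfate donor PAPS, read 9.37 and 9.12 against 7.48 in CDP and 5.84 in the nonclassical monocyte (gap 1.65). Pla2g4a, the cytosolic phospholipase that frees arachidonic acid, read 8.24 and 8.23 against 6.72 and 6.87 (gap 1.36). Acadsb, a mitochondrial acyl-CoA dehydrogenase, had a gap of 1.05.

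The remaining counted genes included Dstn, an actin-depolymerizing protein, at 11.18 in cMoP and 10.93 in the classical monocyte against 8.65 in CDP and 9.40 in the nonclassical monocyte (gap 1.53). Tfec, a transcription factor of the MiT family, read 11.03 and 10.13 against 8.85 in CDP and 5.48 in the nonclassical monocyte (gap 1.27), with MDP between the sides at 9.83. Pde2a, which hydrolyses cyclic nucleotides, had a gap of 1.34, the calcium-binding protein S100a1 1.30, the membrane protein Stom 1.19 (0.98 after quantile normalization), the phospholipid-binding protein Anxa1 1.14 (0.94), and Fgl2 and Atrn 1.05 each. Atxn1 had a gap of 1.42 with its brighter probe set and 0.20 with its other one. Atrn had 0.36 with its other probe set, so neither gene passed on the mean of its probe sets.

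Histone genes recurred in the wider set. H2bc3 and H4c3 had gaps of 1.14 and 1.13 (0.993 for H4c3 after quantile normalization), and H2ac4 (0.997), H4c6 (0.750), H2bc9 (0.601) and H2bc8 (0.519) passed 0.5. That made 6 of the 155 genes (3.87%), where histone genes were 0.231% of the genes past the floor, and 0 of the 49. Replication-dependent histones are packed around new DNA and are made mainly in cycling cells. H2bc3 read 9.34 in cMoP and 9.25 in the classical monocyte, 8.12 in CDP, 8.30 in MDP and 5.92 in the nonclassical monocyte, which was the lowest of the 5 arrays for 19 of the 23 histone genes past the floor. H4c3, H2bc3 and H2ac4 lie close together on chromosome 13, as do H2bc9, H4c6 and H2bc8. Copies of these genes are nearly alike, so single members are uncertain, and the histones were singled out after their values were seen.

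The start regions of counted genes are shown for Itgax, the gene with the widest gap on its side, and for S100a8, Clec5a and Lcn2, the 3 widest on the other. Each is the RefSeq window on GRCm38.p6 from 250 bases before to 50 bases after the annotated start, read 5′ to 3′ on the gene's strand. Capitals mark the matches to 8 short motifs searched on either strand: GAGGAAG (PU.1), TTGCNNAA (C/EBP), AAGGTCA (NR4A), TGANTCA (AP-1), GAAANNGAA (interferon response), TGTGGTT (RUNX), GGGTGTG (KLF) and CAGGTG (E-box). No match overlapped that of another motif in these windows.
Itgax, chr7:128129300-128129599, plus strand: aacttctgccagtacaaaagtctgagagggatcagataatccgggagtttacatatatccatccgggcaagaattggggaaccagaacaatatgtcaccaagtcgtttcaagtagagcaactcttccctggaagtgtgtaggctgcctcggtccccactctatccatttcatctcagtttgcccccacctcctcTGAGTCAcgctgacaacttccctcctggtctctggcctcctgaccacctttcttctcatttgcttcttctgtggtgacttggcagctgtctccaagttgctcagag
S100a8, chr3:90668821-90669120, plus strand: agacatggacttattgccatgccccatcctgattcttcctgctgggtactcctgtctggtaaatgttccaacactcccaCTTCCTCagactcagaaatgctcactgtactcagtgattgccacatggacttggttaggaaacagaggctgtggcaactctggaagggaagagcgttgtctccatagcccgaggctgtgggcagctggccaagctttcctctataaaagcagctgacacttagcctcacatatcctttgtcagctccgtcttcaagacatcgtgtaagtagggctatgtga
Clec5a, chr6:40585756-40586055, minus strand: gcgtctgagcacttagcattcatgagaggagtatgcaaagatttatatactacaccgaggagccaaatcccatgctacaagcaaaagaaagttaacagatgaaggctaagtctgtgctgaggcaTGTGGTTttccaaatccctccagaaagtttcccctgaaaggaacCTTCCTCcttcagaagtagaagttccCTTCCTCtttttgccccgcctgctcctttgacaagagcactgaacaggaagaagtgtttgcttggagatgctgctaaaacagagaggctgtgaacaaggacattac
Lcn2, chr2:32387690-32387989, minus strand: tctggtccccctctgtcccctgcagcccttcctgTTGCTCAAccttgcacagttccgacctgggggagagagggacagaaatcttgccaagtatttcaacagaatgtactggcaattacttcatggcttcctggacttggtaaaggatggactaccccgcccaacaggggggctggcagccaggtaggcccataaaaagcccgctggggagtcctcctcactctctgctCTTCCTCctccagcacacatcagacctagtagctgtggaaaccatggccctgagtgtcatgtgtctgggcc

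The Itgax window held 1 AP-1 match, TGAGTCA, which reads as an AP-1 motif on both strands, starting 56 bases before the start. S100a8 held a PU.1 match, read as CTTCCTC on the strand shown, Clec5a held 2 PU.1 matches and 1 RUNX match, and Lcn2 held 1 PU.1 and 1 C/EBP match (TTGCTCAA). A window was listed for 30 of the 33 genes and for 174 of the 204 with a gap of 0.5 or more. Of the 26 windows of the genes higher in cMoP and the classical monocyte, 8 (30.8%) held GAGGAAG and 6 (23.1%) held TTGCNNAA, against 13.5% and 10.8% of all 27025 genes with a window. In the 140 windows of the wider set 22 and 20 held them, the first a share of 15.7%. Among all windows the other shares were 4.66% for AAGGTCA, 7.93% for TGANTCA, 8.57% for GAAANNGAA, 5.37% for TGTGGTT, 7.85% for GGGTGTG and 20% for CAGGTG. Of the same 26 windows, 4 (15.38%) held TGTGGTT, so GAGGAAG and TTGCNNAA were not the only motifs with a raised share. CAGGTG went the other way, with 2 (7.692%). TGANTCA, GAAANNGAA and GGGTGTG were held by 3 each and AAGGTCA by 0. In the 140 windows, 10 held TGTGGTT and 22 held CAGGTG. None of these shares was tested. The KLF motif GGGTGTG was held by 8 of the 34 windows (23.5%) of genes higher in CDP and the nonclassical monocyte by 0.5 or more and by 16 of 140 (11.4%) on the other side. Each other motif was held by 0 to 4 of those 34 windows. A match is a string of letters in a window and not a bound site.

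MicroRNA genes were 6 of the 49 genes higher in CDP and the nonclassical monocyte by 0.5 or more (12.2%) and 0 of the 155 on the other side. They were 300 of the 19938 genes with a value and 0.755% of the genes past the floor on a side. Olfactory or vomeronasal receptor genes were also 2 of the 49 (4.08%) and 0 of the 155, against 0.191% of the genes past the floor. A raised share in this wider set was thus not particular to microRNAs. Both kinds of gene were singled out after their values were seen. For microRNAs the array read their genes, so the mature arm is not known from it. A microRNA finds its targets mainly through its seed, bases 2 to 8. The RefSeq mature sequences (GRCm38.p6) of the named arms are given with the seed in capitals, and all 6 seeds differ.
miR-103-3p (Mir103-2), chr2:131288103-131288125, plus strand: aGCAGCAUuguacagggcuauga
miR-17-5p (Mir17), chr14:115043684-115043706, plus strand: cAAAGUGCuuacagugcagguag
miR-128-3p (Mir128-1), chr1:128202404-128202424, plus strand: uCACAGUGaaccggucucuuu
miR-18a-5p (Mir18), chr14:115043867-115043889, plus strand: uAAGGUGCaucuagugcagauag
miR-680 (Mir680-3), chr12:35194849-35194869, minus strand: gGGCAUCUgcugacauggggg
miR-155-5p (Mir155), chr16:84714143-84714165, plus strand: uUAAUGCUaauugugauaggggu

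Mir103-2 had the widest gap (0.890), with 8.19 in CDP and 8.89 in the nonclassical monocyte against 6.36 in cMoP and 7.30 in the classical monocyte. Pank2, which hosts it, read 8.95 in CDP, cMoP and the classical monocyte and 8.63 in the nonclassical monocyte, and so did not split the same way. Its values in CDP, cMoP and the classical monocyte were exactly equal, so small differences may be missing there. Mir17 read 8.09 and 7.76 against 7.01 and 6.58, and Mir18 read 7.76 and 6.99 against 6.43 and 5.99. Both were highest in MDP, at 8.88 and 8.56. They lie in 1 cluster on chromosome 14, whose members Mir19a, Mir20a and Mir19b-1 were under the floor on all 5 arrays. So was the cluster's host gene Mir17hg, at 5.13 to 5.77, with no gap. Mir103-1 (4.20 to 5.13) and Mir128-2 (4.75 to 5.61) were under the floor on all 5 arrays as well. Mir128-1 (gap 0.636) and Mir155 (gap 0.528) were dim, with no array above 6.84. Mir680-3 had a gap of 0.538. After centring each array on its median, the gaps of Mir18, Mir680-3 and Mir155 fall under 0.5. The host of Mir128-1, R3hdm1, read 9.74 in CDP, 9.28 in cMoP, 9.33 in the classical monocyte and 9.13 in the nonclassical monocyte, with no gap.

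Of the 49 genes higher in CDP and the nonclassical monocyte by 0.5 or more, 27 differed by under 0.5 between these 2 arrays and 37 by under 1, while 9 were higher by 1 or more in the nonclassical monocyte and 3 in CDP. Near the head of the 49, Ttyh3 read 9.71 in CDP and 9.68 in the nonclassical monocyte against 8.56 in cMoP and 8.94 in the classical monocyte (gap 0.74), and Pate11 read 8.57 and 8.59 against 7.80 and 7.82 (gap 0.75). Higher in the nonclassical monocyte than in CDP were Gcnt2, a glycosyltransferase (9.41 and 7.75, gap 0.86), Chst15, a sulfotransferase (8.76 and 7.67, gap 0.79), Fndc9 (7.56 and 6.5, gap 0.88) and the heat shock protein gene Hspa1a (9.87 and 8.27, gap 0.72), whose near-identical copy Hspa1b makes the probe set's specificity uncertain. Jun, a subunit of AP-1, read 9.44 in CDP and 10.10 in the nonclassical monocyte against 8.69 in cMoP and 8.74 in the classical monocyte (gap 0.70). Tcf7l2, a transcription factor of the Wnt pathway, read 7.45 and 10.07 against 6.80 and 5.69 (gap 0.65), so that it was far higher in the nonclassical monocyte than in CDP. Dpp4, the peptidase CD26, was the reverse, at 9.64 in CDP and 8.34 in the nonclassical monocyte against 7.72 in both cMoP and the classical monocyte (gap 0.62). Cox6a2, a subunit of cytochrome oxidase that plasmacytoid dendritic cells carry, read 9.22 and 7.74 against 7.11 and 7.01 (gap 0.62) and lies near Itgax on chromosome 7 with 1 gene between them. Neither Dpp4 nor Cox6a2 kept a gap of 0.5 after centring. Tspan13, Fyn and Kbtbd11 had gaps of 0.58, 0.62 and 0.55 with a classical monocyte well above cMoP.

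The grouping can also be read as a pair of comparisons that share no array, CDP over cMoP and nonclassical over classical monocyte. CDP was higher than cMoP by 1 or more in 230 genes (2.20% of 10441) and lower in 337 (3.23%). The nonclassical monocyte was higher than the classical monocyte in 373 genes (3.55% of 10503) and lower in 1031 (9.82%). Higher in both were 41 genes, which is 17.8% of the 230 and 11% of the 373, and lower in both were 91, which is 27.0% of the 337 and 8.83% of the 1031. In opposite directions, 35 genes were higher in CDP and lower in the nonclassical monocyte (15.2% and 3.39% of their lists), and 12 were lower and then higher (3.56% and 3.22%). The split of 41 to 91 was 52 to 73 after quantile normalization and 33 to 139 after centring. Across 9968 genes at or above the floor in both comparisons, which are not independent replicates, the differences correlated at r = 0.233 (rho = 0.361).

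**Figure D3:**
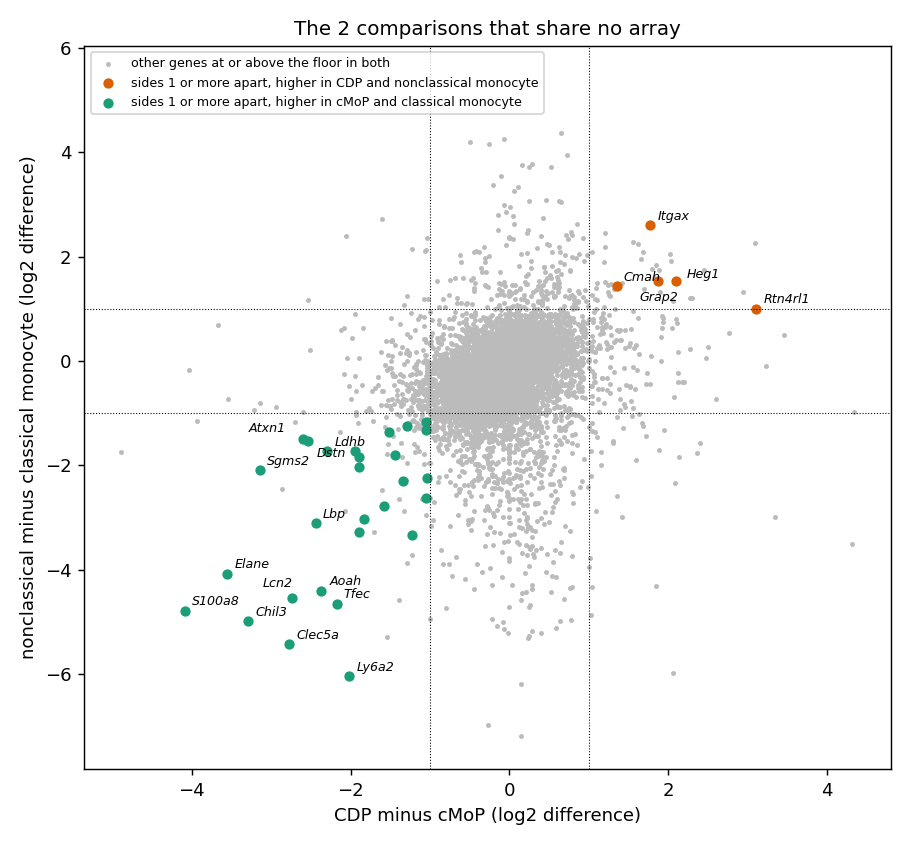
Each point is a gene at or above the floor in both comparisons, with CDP minus cMoP on the horizontal and nonclassical minus classical monocyte on the vertical axis (log2 differences). The 5 genes counted for CDP and the nonclassical monocyte sit at the upper right and the 28 counted for the other side at the lower left, and the dotted lines mark a difference of 1.

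Most genes of the 41 did not split the sides by a wide margin, because the classical monocyte stood above cMoP. Of the 41, 20 had a gap of any size and 21 had sides that overlapped, the nonclassical monocyte was the highest of the 5 arrays in 35, and cMoP was the lowest in 34. Cd74, the invariant chain of class II molecules, led the 41. It read 7.97 in CDP and 4.88 in cMoP (a difference of 3.10) and 9.79 in the nonclassical and 7.53 in the classical monocyte (2.26). Its sides were only 0.44 apart, since the classical monocyte lay just under CDP. Cx3cr1, the fractalkine receptor, read 10.37 in CDP and 8.57 in cMoP, and 12.30 in the nonclassical and 10.54 in the classical monocyte, so that CDP lay under the classical monocyte and the sides overlapped.

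The same held for Dusp1, a phosphatase that shuts off MAP kinases, with differences of 1.56 and 2.27, for Btg2, an antiproliferative gene, with 1.25 and 1.26, and for the transcriptional repressor Bcl6, with 1.04 and 2.08. Bcl2, the inhibitor of apoptosis, was higher in CDP (11.04) than in cMoP (9.84) and in the nonclassical (8.75) than in the classical monocyte (7.23), but both monocytes lay under both progenitors. L1cam, an adhesion molecule, had differences of 2.45 and 1.75 and a gap of 0.33, and Lgmn, a lysosomal protease that processes antigen, had 1.88 and 1.74 and a gap of 0.03. Sox4, a progenitor transcription factor, had 1.27 and 1.25 with CDP at 8.43 and the nonclassical monocyte at 6.40.

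**Figure D4:**
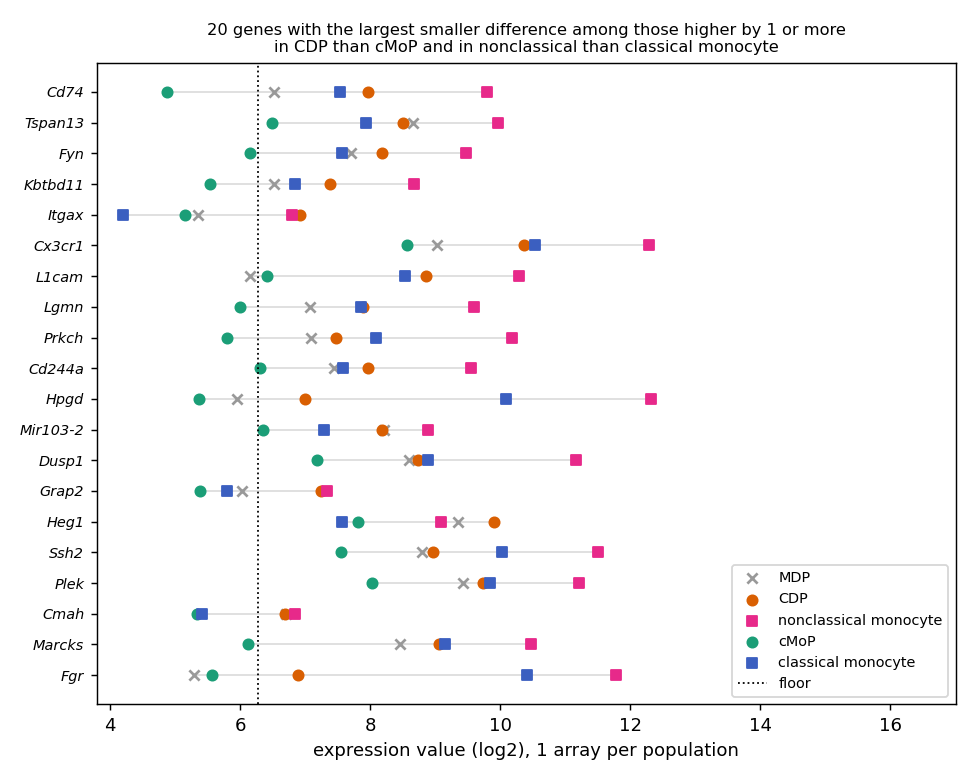
Log2 expression values on the 5 arrays of the 20 genes with the largest smaller difference among the 41 that were higher by 1 or more in CDP than in cMoP and in the nonclassical than in the classical monocyte. The dotted line is the floor. In most of them the classical monocyte lies near or above CDP, and in Itgax, Grap2, Heg1 and Cmah it lies with cMoP.

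Of the 91 genes lower in both, 70 had a gap of some size, and the nonclassical monocyte was the lowest of the 5 arrays in 72. Ms4a3, a marker of granulocyte and monocyte progenitors, had differences of -4.89 and -1.74, but cMoP (11.94) stood far above the classical monocyte (7.41), which was close to CDP (7.05). Prtn3, Ctsg and Cst7, of granule proteins, were lower in both with sides that overlapped. Clec4a2, a lectin receptor, had differences of -2.86 and -2.46 and a gap of 0.86, and MDP lay 0.36 below all 4 arrays.

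The genes with the largest differences in opposite directions run across the grouping. Fn1, fibronectin, read 9.45 in CDP and 7.39 in cMoP but 6.70 in the nonclassical and 12.69 in the classical monocyte. Ifi205, an interferon-induced gene, read 8.18 and 3.87 in CDP and cMoP and 4.42 and 7.92 in the nonclassical and classical monocyte. Rnd3, a small GTPase that acts on actin, Wfdc17 and Lilra6 had the same pattern, with smaller differences of 2.99, 2.09 and 1.85. Lower in CDP than in cMoP and higher in the nonclassical monocyte were Scnn1a, a sodium channel subunit, Pglyrp1, which binds peptidoglycan, the Fc receptor gene Fcgr4, B4galnt1 and Cd81, with smaller differences from 2.06 to 1.22. CDP was under the floor of 6.27 for Fcgr4 (4.78) and Scnn1a (5.89), and cMoP was just above it for Fcgr4 (6.30).

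Gene lists were read by their counts and by the median of the difference between the means of the sides, which was 0.03 over all 19938 genes. These medians use the same arrays as the rule and keep the genes it counted, so they describe a list and lend the grouping no support. Elane and Fcnb are kept in the primary granule list, and Chil3 and Sgms2 in the classical monocyte list. The shares over all genes past the floor are repeated here for comparison. For CDP over cMoP they were 2.20% higher and 3.23% lower by 1 or more. For nonclassical over classical monocyte they were 3.55% higher and 9.82% lower, so equal counts in the 2 comparisons do not weigh the same. Over all 19938 genes, 41 were higher in both comparisons and 91 lower in both, and 5 and 28 had a gap of 1. List counts are out of all measured members, some of them under the floor, so their base differs from that of the shares. The list of primary granule genes holds proteases stored in granules but also genes of other proteins, such as Gstm1 and Hdc. In it, 13 of the 15 measured, Gstm1 and Hdc among them, were lower in CDP than in cMoP by 1 or more. Of the 15, 9 were lower in the nonclassical than in the classical monocyte, and 8 were lower in both. The median difference of the list was -2.42. Yet only Elane and Fcnb had a gap of 1, and Gstm1 one of 0.88. For Mpo, myeloperoxidase, the sides overlapped with a bright CDP, at 12.86 against 11.16 in the classical monocyte. For others the classical monocyte was low. Nkg7 read 11.70 in cMoP, 7.77 in CDP and 7.16 in the classical monocyte, and Cd63 read 10.10, 6.96 and 6.54. For Igsf6 the nonclassical monocyte (11.08) lay above cMoP (10.76).

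The glutathione and redox list had 5 of 17 genes lower in each comparison and 3 in both, which were Gpx3, Mgst1 and Mgst2, with a median difference of -0.58. Gstm1, a glutathione transferase, read 11.74 in cMoP and 11.30 in the classical monocyte against 8.80 in CDP and 10.42 in the nonclassical monocyte (gap 0.88), and its neighbour Gstm4 had a gap of 0.51. Of 17 classical monocyte genes, 3 were lower in both comparisons, Chil3, Mgst1 and Sgms2, and Hp, haptoglobin, had a gap of 0.44. The list's median difference was -1.56, of which F13a1 shows the limits, with 11.55 in CDP, 11.40 in cMoP, 12.24 in the classical and 5.04 in the nonclassical monocyte.

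In the list of nonclassical monocyte genes, 19 of 22 were higher in the nonclassical than in the classical monocyte, but only 3, Cx3cr1, Itgax and Bcl2, were also higher in CDP than in cMoP. Itgax alone had a gap of 1. Nr4a1, the nuclear receptor on which nonclassical monocytes depend, read 11.81 in the nonclassical and 7.87 in the classical monocyte, 6.77 in CDP and 6.05 in cMoP. Ace, Cd36 and Eno3 read between 4.12 and 7.13 in CDP and cMoP and above 11 in the nonclassical monocyte.

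In the lists of plasmacytoid genes and of genes shared by conventional dendritic cells, more members differed between the progenitors than between the monocytes. Of 17 plasmacytoid dendritic cell genes, 10 were higher in CDP than in cMoP, 1 (Tlr7) was higher in the nonclassical than in the classical monocyte and 2 were lower there. None was higher in both, as Tlr7 was under the floor in CDP and cMoP. Siglech, a surface marker of plasmacytoid dendritic cells, read 7.68 in CDP and 5.71 in the nonclassical monocyte, which was under the floor like cMoP (5.14) and the classical monocyte (5.60). Tcf4, the transcription factor that sets plasmacytoid fate, read 9.54 in CDP, 8.51 in the nonclassical monocyte, 8.16 in the classical monocyte and 8.02 in cMoP, a gap of 0.35. Of 9 genes shared by conventional dendritic cells, 6 were higher in CDP than in cMoP and 1, Itgax, also in the nonclassical over the classical monocyte. Id2, Kmo and Flt3 read 8.01, 9.09 and 10.74 in CDP, and their differences between the nonclassical and the classical monocyte were -1.57, -1.77 and -0.97. The lists of type 1 and type 2 dendritic cell genes each had 1 of 8 genes higher in CDP than in cMoP. Only 3 and 2 of the 8 had a side past the floor. Between the monocytes, 2 genes of the type 1 list were lower in the nonclassical one, and of the type 2 list 1 was higher and 1 lower.

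Of 8 genes of class II presentation, Cd74 alone was higher in both comparisons. H2-Aa, H2-Ab1 and H2-Eb1, the chains of class II molecules, read 8.05, 8.04 and 6.81 in CDP and 6.47, 6.97 and 6.90 in the nonclassical monocyte, against 5.92 to 6.64 in cMoP and the classical monocyte, with gaps of 0.17, 0.34 and 0.35. H2-DMa, a chain of the molecule that loads peptide, was lower in the nonclassical (8.74) than in the classical monocyte (10.57), with 10.68 in CDP and 10.27 in cMoP, and the difference of H2-Oa between the monocytes was -0.65. The list's median difference was 0.55. Among 26 immediate early genes and MAP kinase feedback genes, 3 were higher in CDP than in cMoP (Dusp1, Zfp36 and Btg2) and 9 in the nonclassical than in the classical monocyte, 2 of them in both. Egr1, Jund and Dusp2 had gaps of 0.30, 0.26 and 0.48, and the median difference was 0.48.

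Of 20 mitosis genes, 20 were lower in the nonclassical than in the classical monocyte, 0 were lower in CDP than in cMoP and 3 were higher there. DNA replication had 18 of 22 lower in the nonclassical monocyte and 0 past 1 either way between CDP and cMoP. Of 35 myeloid transcription factors, 1 (Bcl6) was higher in both comparisons and 1 (Id1) lower in both. After quantile normalization or centring the count of those higher in both was 0.

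MDP, placed beside the 4 arrays, did not belong to a side. Among the 5 genes it stood with the higher side for 3 (Heg1, Cmah and Rtn4rl1) and between the sides for Itgax and Grap2. Among the 28 it stood with the higher side for Atxn1, Elane and Lbp, between the sides for 13 and with the lower side for 12, S100a8, Lcn2, Sgms2, Gpx3 and Fcnb among them. In the wider set it was with the higher side, between and with the lower side for 21, 22 and 6 of the 49 genes and for 23, 92 and 40 of the 155. Outside the range of all 4 arrays, MDP was highest for Mir18 (by 0.80), Mir17 (by 0.79) and Marcksl1 (by 0.37), and lowest for S100a8 (by 1.03), Fcnb (by 0.44) and Clec4a2 (by 0.36).

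**Figure D5:**
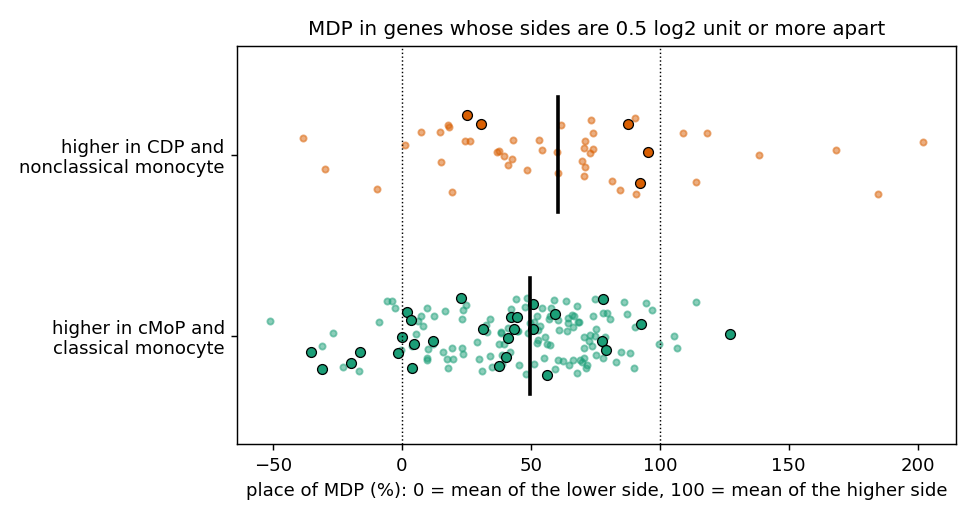
Place of the MDP value between the means of the sides, in percent, for genes with a gap of 0.5 or more, where 0 is the mean of the lower side and 100 that of the higher side. Outlined points have a gap of 1 or more, the black bar is the median, and points were spread vertically at random. The median is 60.7% for the 49 genes higher in CDP and the nonclassical monocyte and 49.6% for the 155 of the other side.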

How the data were processed

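The authors deposited 1 table of log2 values for 35556 probe sets on 5 arrays. Their range, 1.59 to 14.24, was taken to mean base 2. For background correction, normalization and tools, nothing is given in the sources. In 6944 genes (34.8%) the arrays that bound the sides hold exactly the same value, so small differences may be missing from the table. Probe sets with exactly 1 symbol in the platform annotation (21789) gave 19938 genes, and the brightest probe set by mean stood for the 999 genes with several. Of the rest, 1621 carry several symbols and 12146 are not listed there.

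The gap, the floor and the counts were computed in Python 3.11.15 with pandas 2.3.3 and numpy 2.4.6, and tested on simulated data. A fold is given with values under the floor set to it. Of 463 list names in 30 lists, 426 were measured. Named are the 15 widest gaps on each side, list members, the 3 genes on either edge of the threshold, 5 opposite genes each way and 3 genes by MDP. Other genes were chosen after their values were seen. The members, lists and threshold were chosen with earlier results of these data known. With 1 array per population, no test was made, and precision is limited by the number of arrays. Alternatives covered the floor, the threshold, the scaling and the choice of probe set.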

Additional observations from a re-analysis of the deposited data

How the results depend on the processing

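No paired analysis was possible because each population has 1 array, and for the same reason no replicate could be left out. The count of 5 genes higher in CDP and the nonclassical monocyte was 1 (Heg1) with the floor at the upper quartile of all gene values (7.93) and 49 with a threshold of 0.5. It lay between 4 and 7 under the other alternatives. The count of 28 was 155 with a threshold of 0.5 and otherwise lay between 22 and 36. Of the overlaps, genes higher in both comparisons were 19, and genes lower and then higher 5, with the higher floor, and genes lower in both were 139 after centring. No gap of the 31 genes followed changed sign under quantile normalization, centring or the mean of probe sets. Under all of these 3, 4 of the 5 and 21 of the 28 genes kept a gap of 1. Chosen after seeing the data, the same alternatives were run on the wider counts of 49 and 155. The first was 17 with the higher floor, 63 without a floor and 30 after centring, and the second 118, 160 and 228. Genes with a gap of any size were 994 for CDP and the nonclassical monocyte and 1844 for the other side. Without a floor that order was reversed, at 3101 and 1985. They were 1403 and 1551 after quantile normalization and 520 and 3716 after centring. Every value rests on single arrays, dim genes near the floor are the least certain, and the scaling of the deposited arrays is unknown.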

Other observations

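The 2 sphingomyelin synthase genes stood in opposite sets, which was seen after their values. Sgms2 was lower in both comparisons (differences of -3.15 and -2.09), while Sgms1 was higher in both, at 7.82 in CDP and 6.73 in cMoP and at 9.66 in the nonclassical and 8.18 in the classical monocyte. The sides of Sgms1 overlapped, because CDP lay under the classical monocyte.

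Several counted genes lie side by side. Jun and Fggy are neighbours on chromosome 4 and were both higher in CDP and the nonclassical monocyte, by 0.70 and 0.50. Hadh, a mitochondrial dehydrogenase of fatty acid oxidation, lies near Sgms2 on chromosome 3 with 1 gene between them and was higher in cMoP and the classical monocyte by 0.88. Whether neighbours share a split more often than other genes was not tested.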
